A study of Xenopus laevis with 12 samples.

Results

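The hexosamine synthesis enzymes turn fructose-6-phosphate into UDP-GlcNAc, the activated sugar that cells spend on glycans and on O-GlcNAc. Glutamine-fructose-6-phosphate transaminase, encoded by gfpt1 and gfpt2, commits sugar to this pathway and is held back by its end product. The enzyme gnpnat1 then acetylates glucosamine-6-phosphate, pgm3 moves the phosphate, and uap1 uses UTP to turn the product into UDP-GlcNAc. O-GlcNAc transferase, encoded by ogt, attaches the sugar to serines and threonines of nuclear and cytosolic proteins. The rows described here were chosen by symbol: every row whose name without its homeolog suffix (.L or .S, the long and short subgenome of the allotetraploid Xenopus laevis) is gfpt1, gfpt2, gnpnat1, pgm3, uap1 or ogt. There were 7 such rows of 42638 in the count table, namely gfpt1.S, gfpt2.L, gnpnat1.L, pgm3.L, uap1.L, uap1.S and ogt.L. All 7 were among the 25553 rows that passed the filter on low counts. The 6 symbols were picked with earlier results of these data in view, taken here to be the response to thioridazine, so the values of thioridazine against control embryos are given below as a description, with no test.

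RNA was measured in wild-type whole embryos at stage 35. They had been kept in cohorts of 300 (large) or 100 (small) embryos, with 90 µM thioridazine or in plain medium at the same temperature of 18 °C. The study's text gives this temperature for the treatment and a lower one before and after it. Thioridazine is an antipsychotic drug that blocks dopamine receptors. The 4 groups, with 3 libraries each, were thioridazine large, thioridazine small, control large and control small. A library pooled 15 tadpoles, so no value belongs to a single animal or tissue, and fewer cells of a type and less RNA per cell cannot be told apart. The labels give the exposure as stage 12.5 to 35, but also name stage 25 for the embryos. The study's text describes a shorter exposure from the same start, followed by a brief recovery in drug-free medium before collection, so whether drug was still present at collection is not settled.

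Libraries held between 4887343 and 7497662 expected counts, that is, reads assigned to genes by a model that divides a read between genes it could come from. Levels below are CPM, the counts of a row relative to the scaled library total (TMM scaling), and they compare libraries for 1 row, not rows with each other, because transcript lengths were not used. On the main axis of variation (29.2% of the variance), thioridazine small 1 and thioridazine large 2 lay farthest from the controls, at -64.6 and -46.7. Scores of the remaining 4 thioridazine libraries were -29.0 to -3.92, and those of the 6 control libraries were 22.2 to 39.0. Of the 8 marker lists for tadpole cell types, the 16 neuron and neural tube rows summed to 798 to 971 CPM in thioridazine libraries and 1079 to 1195 CPM in control libraries. The 7 goblet and mucus cell rows summed to 1361 to 1655 CPM in thioridazine large libraries and 1787 to 2206 CPM in control large libraries. In small cohorts they summed to 1015 to 1458 CPM with thioridazine and 1512 to 1709 CPM in controls. Not every row was lower: with surrogate variables 4 of 16 neuron rows in large and 6 in small cohorts had positive log2 fold changes. So did 3 of 7 goblet cell rows in large and 2 in small cohorts. The 10 cartilage rows summed to 428 to 614 CPM in thioridazine large libraries and 645 to 749.6 CPM in control large libraries, but to 567 to 678 CPM in thioridazine small and 563 to 662 CPM in control small libraries, which overlap. Their median log2 fold change was -0.00 in large and 0.34 in small cohorts with surrogate variables, and -0.35 and 0.005 without them. None of these 3 lists had a row called in either treatment comparison, but without surrogate variables 2 neuron rows in large and 4 in small cohorts, and 1 goblet cell row in each, were called lower. In that fit 2 muscle rows were also lower and 3 keratinocyte rows and 1 leukocyte row higher in large cohorts, and in small cohorts 1 keratinocyte row was higher and 1 lower. Their part in the values below was not tested.

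Of the 7 rows, the transaminases gfpt1.S and gfpt2.L stood far above control in thioridazine embryos of both cohort sizes, while the other rows differed far less. For gfpt1.S the CPM values were 421, 456 and 567 in thioridazine large libraries and 109.9, 116 and 113 in control large libraries. In small cohorts gfpt1.S was at 585, 643 and 511 CPM with thioridazine and 104, 118 and 117 CPM in controls. The lowest thioridazine library was therefore more than 3 times the highest control library. Means were 482 ± 75.9 CPM against 113 ± 2.97 CPM in large cohorts, and 579.6 ± 66.4 CPM against 113 ± 7.98 CPM in small cohorts (thioridazine before control, SD, n = 3 each). The log2 fold change was 2.10 ± 0.15 (SE) in large and 2.30 ± 0.17 in small cohorts, which are folds of 4.29 and 4.94. Among 25553 rows it was the 48th highest log2 fold change in large and the 55th highest in small cohorts.

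The gfpt2.L row followed the same libraries with a smaller difference. It was at 299, 369 and 433 CPM in thioridazine large libraries and 131, 122 and 131 CPM in control large libraries. In small cohorts gfpt2.L was at 418, 485 and 355 CPM with thioridazine and 121, 141 and 119 CPM in controls. The groups did not overlap in either cohort size. Its log2 fold change was 1.46 ± 0.18 (SE) in large and 1.58 ± 0.20 in small cohorts, or 2.74-fold and 3.00-fold. Within the 6 thioridazine libraries, small 2 was the highest and large 1 the lowest in both transaminase rows.

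**Figure D1:**
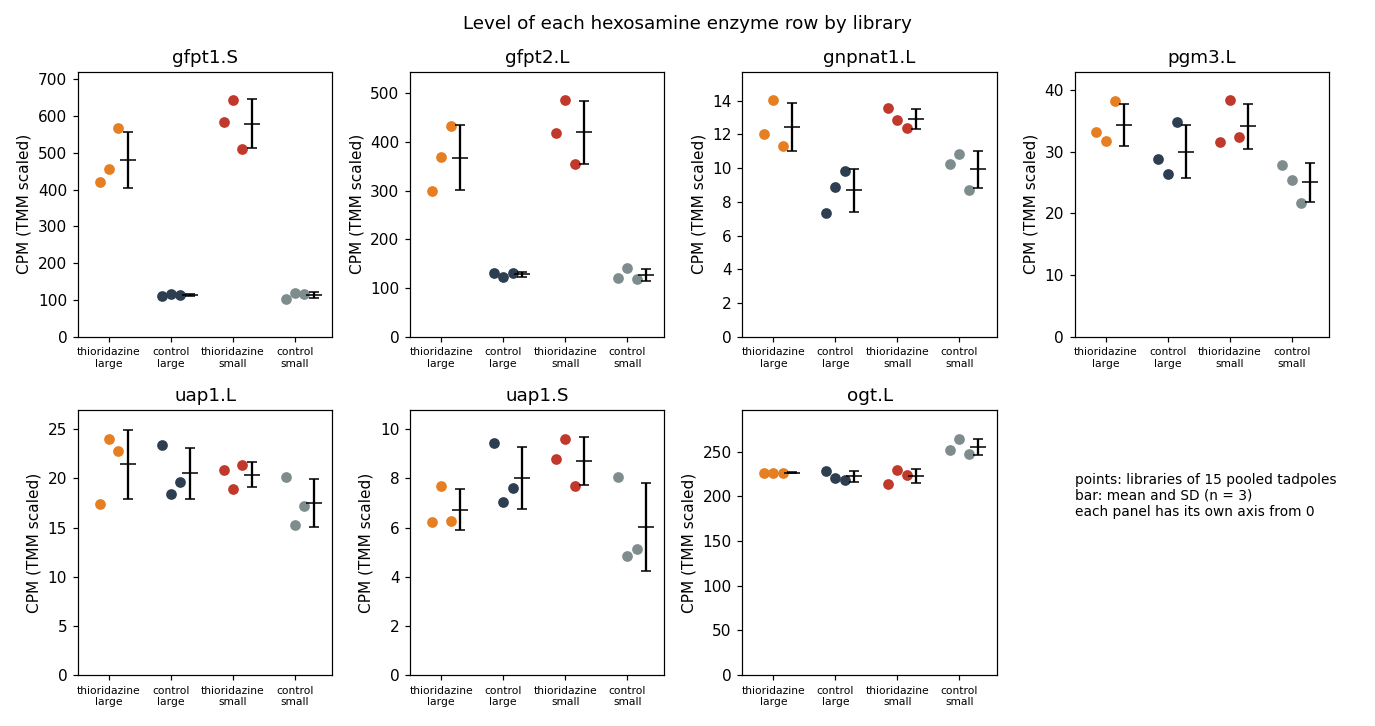
CPM after TMM scaling (y axis, from 0, a separate scale in each panel) of the 7 hexosamine enzyme rows in the 12 libraries (points, 15 pooled tadpoles each), with the mean and SD of each group (n = 3). In gfpt1.S all thioridazine libraries lie at 421 CPM or above and all control libraries at 118 CPM or below, whereas the uap1.L groups overlap in both cohort sizes.

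The 2 transaminase rows share reads, so their sum is firmer than either value. Expected counts of gfpt1.S and of gfpt2.L were not whole in any of the 12 libraries, yet the 2 values added up to a whole count (within 0.005) in every library, and no other row did so with either of them. Reads that fit both rows were thus divided between these 2 rows alone, and how many reads were divided is not known. The sums were 5091, 5355 and 5754 counts in thioridazine large libraries and 1808, 1150 and 1317 counts in control large libraries. In small cohorts they were 5256, 6918 and 6513 counts with thioridazine and 1645, 1820 and 1574 counts in controls. As CPM the pair summed to 849 ± 141 against 241 ± 3.33 in large cohorts, and to 999 ± 131 against 240.2 ± 17.2 in small cohorts (thioridazine before control, SD, n = 3 each). Fitted as a single row, the pair had a log2 fold change of 1.79 ± 0.15 (SE) in large and 1.97 ± 0.17 in small cohorts.

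The division between the 2 rows differed between thioridazine and control libraries. There were 1.41, 1.24 and 1.31 gfpt1.S counts for each gfpt2.L count in thioridazine large libraries and 0.84, 0.95 and 0.86 in control large libraries. The ratio was 1.40, 1.33 and 1.44 in thioridazine small libraries and 0.86, 0.84 and 0.99 in control small libraries. All 6 thioridazine libraries had a higher ratio than any of the 6 control libraries. A value of 1 has no meaning of its own, because transcript lengths were not used. Scaling cancels in this ratio, but the model's division of shared reads does not.

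Names of the transaminase rows are not settled by these files. The RefSeq table for assembly Xenopus_laevis_v10.1 lists both gfpt1 and gfpt2 as synonyms of gfpt2.L. A further row, LOC108710901, carries the product name of transaminase 2, had whole counts in all 12 libraries, and was found after its values were seen. In that assembly gfpt1.S starts at base 30995731 of chromosome 3S, LOC108710901 at 37921102 of 3L and gfpt2.L at 130011180 of 3L. Which of these rows pair as homeologs was not tested. LOC108710901 was at 18.1, 30.5 and 27.3 CPM in thioridazine large libraries and 26.4, 23.6 and 24.7 CPM in control large libraries. In small cohorts LOC108710901 was at 32.6, 28.7 and 16.6 CPM with thioridazine and 22.2, 23.6 and 20.7 CPM in controls. Its groups overlapped in both cohort sizes, and its log2 fold change was -0.52 in large and -0.59 in small cohorts with surrogate variables, but -0.03 and 0.13 without them. Which of the gene's copies the gfpt2.L values belong to therefore needs its sequence, which was not used here.

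**Figure D2:**
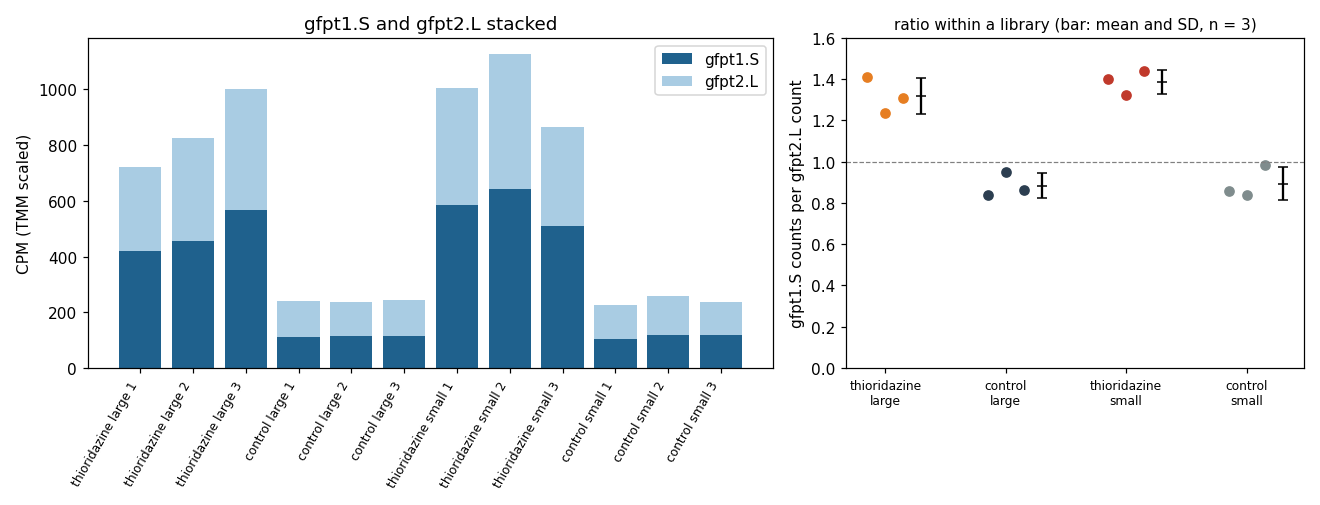
Left, CPM after TMM scaling of gfpt1.S and gfpt2.L stacked for each of the 12 libraries. Right, gfpt1.S counts for each gfpt2.L count within a library (points), with the mean and SD of each group (n = 3) and a dashed line at 1, which is a guide and no threshold: the 6 thioridazine libraries lie between 1.24 and 1.44, the 6 control libraries between 0.84 and 0.99.

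The enzymes after the transaminase showed much smaller differences. The acetyltransferase row gnpnat1.L was at 12.03, 14.0 and 11.3 CPM in thioridazine large libraries and 7.32, 8.88 and 9.83 CPM in control large libraries. In small cohorts gnpnat1.L was at 13.6, 12.9 and 12.4 CPM with thioridazine and 10.3, 10.8 and 8.72 CPM in controls. Its groups did not overlap in either cohort size, at only 43 to 93 counts a library. The log2 fold change was 0.40 ± 0.22 (SE) in large and 0.16 ± 0.24 in small cohorts, and 0.55 and 0.37 without surrogate variables.

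Phosphoacetylglucosamine mutase, pgm3.L, separated the groups in small cohorts only. It was at 33.1, 31.8 and 38.2 CPM in thioridazine large libraries and 28.8, 26.4 and 34.9 CPM in control large libraries, which overlap. In small cohorts pgm3.L was at 31.5, 38.3 and 32.4 CPM with thioridazine and 27.9, 25.5 and 21.6 CPM in controls. Its log2 fold change was 0.36 ± 0.16 (SE) in large and 0.52 ± 0.18 in small cohorts, and 0.19 and 0.44 without surrogate variables. The acetylation and phosphate transfer steps thus had positive values in both cohort sizes, each below 0.6 on the log2 scale.

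By row names the pyrophosphorylase was the enzyme of the route with both an L and an S row. Its thioridazine and control values overlapped for each. Whether gfpt1.S and gfpt2.L are such a pair is not settled here. uap1.L was at 17.4, 24.0 and 22.8 CPM in thioridazine large libraries and 23.4, 18.4 and 19.7 CPM in control large libraries. In small cohorts uap1.L was at 20.8, 18.9 and 21.4 CPM with thioridazine and 20.1, 15.2 and 17.1 CPM in controls. uap1.S, at 34 to 71 counts a library, was at 6.23, 7.71 and 6.25 CPM in thioridazine large libraries and 9.45, 7.02 and 7.60 CPM in control large libraries. In small cohorts uap1.S was at 8.78, 9.62 and 7.71 CPM with thioridazine and 8.07, 4.84 and 5.11 CPM in controls. With surrogate variables the log2 fold changes of uap1.L were -0.19 ± 0.20 (SE) in large and -0.03 ± 0.23 in small cohorts, and those of uap1.S were -0.44 ± 0.30 and 0.24 ± 0.34. Without them uap1.L had 0.02 and 0.23, so the sign of its values rests on the surrogate variables. In that fit uap1.S had -0.28 in large and 0.54 in small cohorts.

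Most uap1 counts fell on the L homeolog in every library. Its mean share was 75.9% ± 2.40 in thioridazine large libraries and 71.9% ± 0.58 in control large libraries. In small cohorts the share was 70.0% ± 3.62 with thioridazine and 74.8% ± 3.00 in controls (SD, n = 3 each). Single libraries ranged from 66.3% (175 counts, exact 95% Clopper-Pearson interval 58.8 to 73.2%) to 78.4% (167 counts, 71.4 to 84.4%). These intervals overlap, and they cover counting error only.

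O-GlcNAc transferase, ogt.L, varied little within groups, with a coefficient of variation of 0.20 to 3.43%. It was at 227, 227 and 226 CPM in thioridazine large libraries and 229, 220.1 and 218 CPM in control large libraries. In small cohorts ogt.L was at 214, 229 and 224 CPM with thioridazine and 252, 265 and 248 CPM in controls. The control small libraries were thus above the 9 others. Its log2 fold change was 0.05 ± 0.08 (SE) in large and -0.14 ± 0.10 in small cohorts, and 0.03 and -0.19 without surrogate variables. Its counts were not whole in any of the 12 libraries, and no single row completed them to whole counts.

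Over the 7 rows the median log2 fold change was 0.36 in large and 0.24 in small cohorts, against -0.00 for all rows tested in each. Thioridazine libraries were all above control libraries in 3 of 7 rows in large cohorts (gfpt1.S, gfpt2.L and gnpnat1.L) and in 4 of 7 in small cohorts (these and pgm3.L). The same separation held for 11.6% and 10.6% of all rows. None of the 7 rows was lower throughout in thioridazine large libraries and only ogt.L was in thioridazine small libraries, against 12.1% and 11.1% of all rows. At an adjusted p under 0.05 over all rows, the limma fit calls 2 of 7 rows (gfpt1.S and gfpt2.L) in each comparison, where it calls 0.223% of all rows in large and 0.160% in small cohorts. Since thioridazine's effect is taken to have chosen the symbols, nothing is read from these shares.

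**Figure D3:**
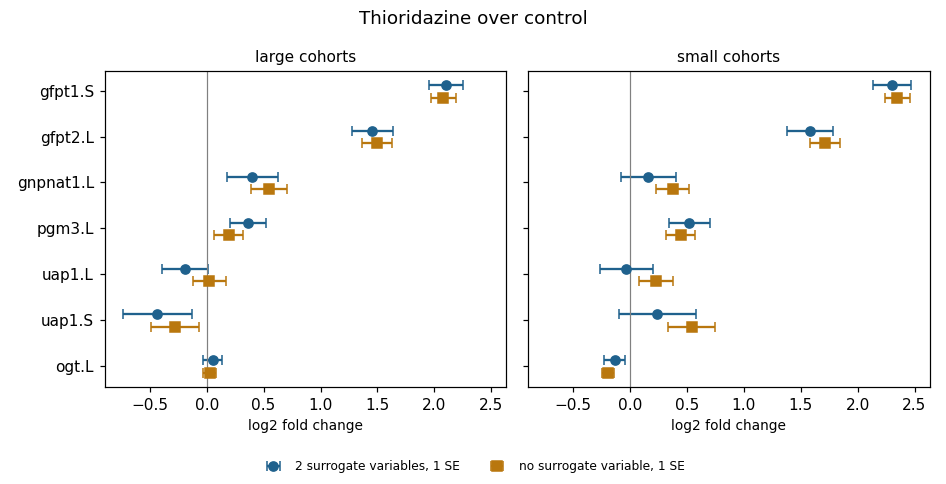
Log2 fold change of thioridazine over control (x axis) for the 7 rows in large and small cohorts, from the limma fit with 2 surrogate variables (circles, bars of 1 SE) and with none (squares, bars of 1 SE). The transaminase rows lie between 1.46 and 2.35 in all 4 sets of values, and every other row lies below 0.6.

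The surrogate variables, which stand for unlabelled variation among libraries, took part in these values. The first of them ran between -0.62 and 0.05 in thioridazine libraries and between 0.15 and 0.31 in control libraries, so it moved with the treatment. Without them gfpt1.S had log2 fold changes of 2.08 ± 0.11 (SE) in large and 2.35 ± 0.11 in small cohorts, and gfpt2.L had 1.5 ± 0.13 and 1.71 ± 0.13. Without thioridazine small 1 and thioridazine large 2, the libraries farthest from the controls, gfpt1.S had 1.91 in large and 1.97 in small cohorts, and gfpt2.L had 1.28 and 1.27.

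The question of the study was whether cohort size alters the response, and the choice of symbols is taken not to have used this contrast, although its rule names none. None of the 7 rows differed between large and small cohorts of thioridazine embryos at an adjusted p under 0.05, where limma called 0.0939% of all rows. The same count, 0 of 7, held in control embryos, where 0.294% of all rows were called, and for the interaction of thioridazine with cohort size, where 0.0744% were. The edgeR and DESeq2 tests also called 0 of 7 in each. At an unadjusted p under 0.05 the limma counts with surrogate variables were 1, 1 and 0 rows. These counts rest on the surrogate variables. Without them uap1.S (-0.82 ± 0.30, log2, SE) and ogt.L (0.22 ± 0.08) also fell under this level for the interaction. Between control cohorts uap1.S did so too (0.47 ± 0.21, large over small). No row was called in that fit. The share of all rows at this level is not given, so nothing is read from these counts.

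gfpt1.S had the lowest unadjusted p of the 7 rows between thioridazine cohorts. Its log2 fold change, large over small, was -0.23 (95% interval -0.46 to -0.0031, adjusted p = 0.68 by limma). The libraries overlapped, at 421 to 567 CPM in thioridazine large and 511 to 643 CPM in thioridazine small cohorts. Without thioridazine small 1 and thioridazine large 2 the value was -0.04, and without thioridazine small 3 it was -0.33. Without surrogate variables it was -0.27 ± 0.10 (SE, adjusted p = 0.61 by limma). gfpt2.L had -0.13 (95% interval -0.41 to 0.15, adjusted p = 0.87 by limma), and the pair as a single row -0.19 ± 0.11 (SE, adjusted p = 0.77 by limma). Without surrogate variables the pair had -0.24 ± 0.10. In control embryos the pair had a log2 fold change of -0.02 ± 0.12, large over small (adjusted p = 0.98 by limma). The difference between cohort sizes in the pair's response to thioridazine was -0.17 ± 0.16 (adjusted p = 0.86 by limma).

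ogt.L differed most between control cohorts, by an unadjusted p. Its 3 control large libraries, at 218 to 229 CPM, all lay below the 3 control small libraries, at 248 to 265 CPM. The log2 fold change was -0.19 (95% interval -0.32 to -0.06, adjusted p = 0.28 by limma), so the difference did not pass. Between thioridazine cohorts ogt.L had -0.00 (95% interval -0.14 to 0.14). Its interaction was 0.19 (95% interval -0.0025 to 0.38, adjusted p = 0.67 by limma).

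uap1.S had the widest intervals of the 7 rows. Its log2 fold change, large over small, was -0.23 (95% interval -0.72 to 0.27) in thioridazine embryos and 0.45 (95% interval -0.01 to 0.91) in control embryos. The interaction was -0.67 (95% interval -1.36 to 0.0070, adjusted p = 0.67 by limma). uap1.L had 0.13 and 0.29 in the same 2 cohort comparisons, with intervals that included 0. For gnpnat1.L and pgm3.L the cohort values lay between -0.21 and 0.18, and every interval included 0. Over the 7 rows, the intervals of both cohort comparisons lay within -0.72 and 0.91.

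**Figure D4:**
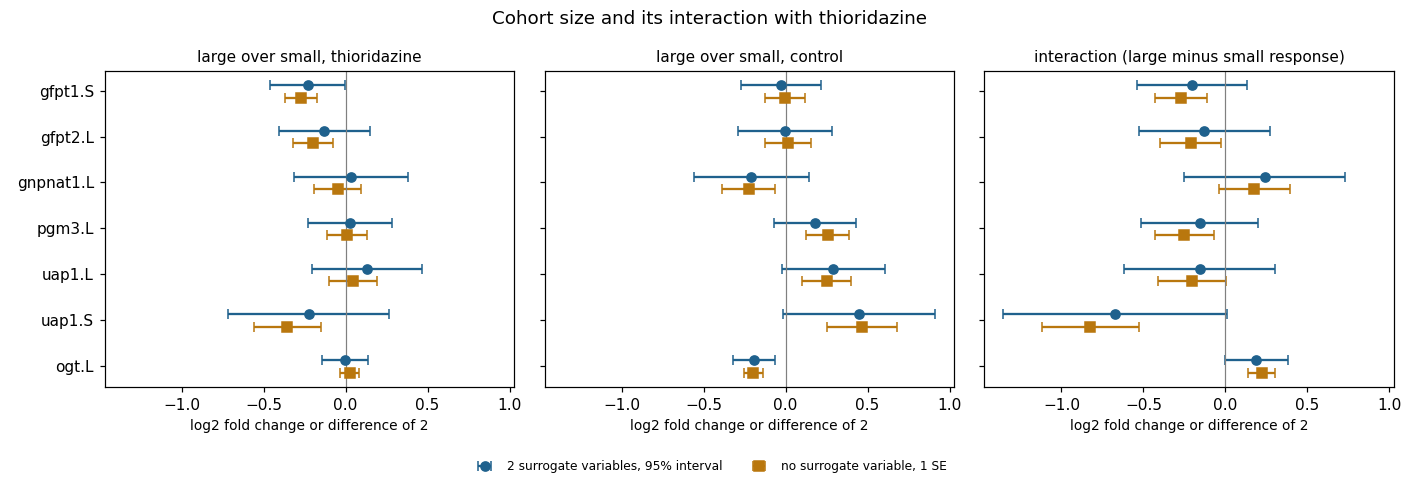
Log2 fold change of large over small cohorts in thioridazine and in control embryos, and the difference of the thioridazine response between large and small cohorts (x axes), for the 7 rows. Circles are the limma fit with 2 surrogate variables (95% intervals), squares the fit with none (1 SE): no row passed an adjusted p under 0.05, and of the circles only gfpt1.S in thioridazine embryos and ogt.L in control embryos have an interval that leaves out 0.

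Genes around the pathway were read from 12 lists with 333 tested rows, none of them among the 7. These lists were also chosen with earlier results of these data known. Their shares and p-values for thioridazine against control are therefore descriptions, and no enrichment is read from them. In large cohorts 1 of 333 rose with thioridazine and 0 fell (0.3%, against 0.223% of all rows tested). In small cohorts 5 of 333 rose and 0 fell (1.5%, against 0.160% of all rows). Without surrogate variables the calls were 20 of 333 in large and 32 of 333 in small cohorts (6.01% and 9.61%), against 2.24% and 2.81% of all rows. These counts were not stable: with 1 library left out they ran between 0 and 39 in large and between 0 and 44 in small cohorts. Surrogate variables were estimated anew in each of these fits. The 39 in large cohorts came without thioridazine small 1, which is not a library of that comparison. The median log2 fold change of the 333 rows was 0.10 in large and 0.08 in small cohorts.

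The nearest genes to the route were those of hexosamine salvage and side reactions, with 12 rows tested. UDP-galactose-4-epimerase, gale, which also interconverts UDP-GlcNAc and UDP-GalNAc, was the called gene of this list. gale.S was at 63.2, 66.1 and 84.6 CPM in thioridazine large libraries and 33.5, 29.5 and 36.0 CPM in control large libraries. In small cohorts gale.S was at 77.3, 68.5 and 74.2 CPM with thioridazine and 28.1, 30.3 and 31.3 CPM in controls. It rose by 1.10 ± 0.16 (SE, log2, adjusted p = 0.0074 by limma) in large and by 1.25 ± 0.18 (adjusted p = 0.0087) in small cohorts. Its homeolog gale.L was at 26.5, 28.2 and 29.1 CPM in thioridazine small libraries and 12.2, 10.4 and 10.4 CPM in control small libraries, a rise of 1.39 ± 0.24 (adjusted p = 0.034). In large cohorts gale.L was at 19.6, 20.8 and 29.9 CPM with thioridazine and 13.4, 16.7 and 17.1 CPM in controls, and did not pass (log2 fold change 0.69, adjusted p = 0.31). The list's median was 0.27 in large and 0.42 in small cohorts, with 9 of 12 rows positive in each, against 49.9% and 49.2% of all rows. Whether the gale.L response differed between cohort sizes was tested as an interaction, -0.70 with an adjusted p of 0.48 by limma.

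The next lists cover steps that use UDP-GlcNAc, or that transfer, trim, bind or remove what is made from it. None of their rows was called in either cohort size with surrogate variables. Without them, Golgi GlcNAc and GalNAc transfer had 3 rows that rose in large and 2 in small cohorts, dolichol-linked assembly 2 and oligosaccharyltransferase 1 that rose in large cohorts, and glycosaminoglycan synthesis 1 that fell in small cohorts. Of the 4 rows for O-GlcNAc removal and the other O-GlcNAc transferase, oga.L, the enzyme that takes O-GlcNAc off, had the smallest p. It was at 199, 193 and 189 CPM in thioridazine large libraries and 205, 209.7 and 199.5 CPM in control large libraries, with a log2 fold change of -0.08 (adjusted p = 0.89 by limma), and of -0.14 in small cohorts (adjusted p = 0.90). Medians in large and small cohorts were 0.13 and 0.05 for 32 rows of dolichol-linked glycan assembly, and 0.09 and 0.07 for 19 oligosaccharyltransferase rows. They were 0.07 and 0.05 for 30 rows of glycan trimming and lectin chaperones, 0.12 and 0.09 for 60 rows of Golgi GlcNAc and GalNAc transfer, and 0.03 and -0.01 for 50 rows of hyaluronan and glycosaminoglycan synthesis. The 10 sialic acid rows had 0.08 and 0.10, and the 9 rows of the GPI anchor steps 0.01 and 0.17.

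In these lists the gene with the smallest p stayed above an adjusted p of 0.05 with surrogate variables. Without them alg5.S (adjusted p = 0.0043 by limma), stt3a.S (adjusted p = 0.020) and b3gnt5.S (adjusted p = 0.049) rose in large cohorts. alg5.S, which makes dolichol-phosphate-glucose, had a log2 fold change of 0.80 in large and 0.43 in small cohorts (adjusted p = 0.13 and 0.81 by limma). The catalytic oligosaccharyltransferase subunit stt3a.S had 0.44 and 0.27 (adjusted p = 0.14 and 0.78). The cargo lectin lman1.S had 0.34 and 0.36, and the glycosyltransferase b3gnt5.S had 0.60 and 0.26. The heparan sulfate polymerase ext1.L had 0.47 and 0.16, the CMP-sialic acid synthetase cmas.L 0.55 and 0.53, and the GPI anchor gene pigc.S 1.18 and 0.52 at under 5 CPM. The groups of cmas.L and pigc.S overlapped in both cohort sizes. Without surrogate variables cmas.L had 0.27 in large and 0.22 in small cohorts, pigc.S 0.70 and -0.02, and ext1.L 0.28 and 0.02. In that fit b3gnt5.S had 0.54 and 0.04, and lman1.S 0.19 and 0.29. With 1 library left out, cmas.L went as low as 0.19 in large (control large 3) and 0.17 in small cohorts (thioridazine small 3), and pigc.S as low as 0.45 (control large 3) and -0.11 (thioridazine small 3). Values of lman1.S, b3gnt5.S and ext1.L reached 0.19, 0.53 and 0.23 in large and 0.13, -0.02 and -0.09 in small cohorts in the same way. Among 35 rows of substrate supply, which make the glutamine, acetyl-CoA, sugar phosphate and UTP that the route takes in, none was called, and without surrogate variables 1 rose in large and 5 in small cohorts. acly.S, the cytosolic source of acetyl-CoA, had 0.37 and 0.41 (adjusted p = 0.19 and 0.34 by limma), 0.21 in each without surrogate variables, and as little as 0.21 and 0.14 with 1 library left out. Medians of this list were 0.15 in large and 0.13 in small cohorts.

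The stress lists were included because mammalian GFPT1 is known as a target of the unfolded protein response. Of 44 rows of that response none was called, but without surrogate variables 6 in large and 4 in small cohorts rose. eif2ak3.S, the sensor kinase PERK, was at 23.9, 28.5 and 24.5 CPM in thioridazine large libraries and 17.6, 17.7 and 16.1 CPM in control large libraries. In small cohorts eif2ak3.S was at 31.7, 35.3 and 32.9 CPM with thioridazine and 17.7, 18.7 and 18.1 CPM in controls, with log2 fold changes of 0.48 in large (adjusted p = 0.33 by limma) and 0.83 in small cohorts (adjusted p = 0.065). Without surrogate variables eif2ak3.S rose by 0.57 in large (adjusted p = 0.015 by limma) and 0.87 in small cohorts (adjusted p = 0.00030).

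Of 30 rows for ATF4 targets and the integrated stress response, 0 were called in large and 3 rose in small cohorts, and the medians were 0.30 and 0.69. ddit3.L, the death-linked transcription factor CHOP, was at 21.0, 18.4 and 17.1 CPM in thioridazine small libraries and 3.15, 2.99 and 2.10 CPM in control small libraries, a rise of 2.23 ± 0.32 (log2, SE, adjusted p = 0.0087 by limma). nupr1.L, a stress-induced nuclear protein, was at 55.1, 50.05 and 46.8 CPM in thioridazine small libraries and 13.6, 5.60 and 14.6 CPM in control small libraries, a rise of 2.07 ± 0.33 (adjusted p = 0.018). chac1.L, which breaks down glutathione, was at 68.6, 70.9 and 60.01 CPM in thioridazine small libraries and 23.2, 21.9 and 19.7 CPM in control small libraries, a rise of 1.21 ± 0.20 (adjusted p = 0.026). In large cohorts their log2 fold changes were 1.67, 0.88 and 0.92, none of which passed, although ddit3.L (adjusted p = 0.0071 by limma) and chac1.L (adjusted p = 0.0027) passed there without surrogate variables. Interactions were -0.56 for ddit3.L, -1.19 for nupr1.L and -0.29 for chac1.L, and none passed (adjusted p = 0.75, 0.32 and 0.79 by limma). nupr1.L was at 15.1, 25.1 and 20.5 CPM in control large libraries, all above control small (log2 fold change 0.79, adjusted p = 0.23 by limma). Between thioridazine cohorts it had -0.41, large over small (adjusted p = 0.69), so its interaction does not lie in thioridazine libraries alone. Between control cohorts ddit3.L had -0.36 and chac1.L -0.17, large over small. Over the 30 rows, 4 had a positive interaction (median -0.28), against 50.5% of all rows. Large thioridazine cohorts were above small ones in 4 of 30 rows (median log2 fold change -0.35), also against 50.5% of all rows. With surrogate variables no row was called for either. Between thioridazine cohorts ddit3.L had a log2 fold change of -0.92, large over small (adjusted p = 0.073 by limma), and of -1.10 without surrogate variables (adjusted p = 0.043). Without surrogate variables 6 of these 30 rows were called in large and 18 in small cohorts, against 2.24% and 2.81% of all rows.

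**Figure D5:**
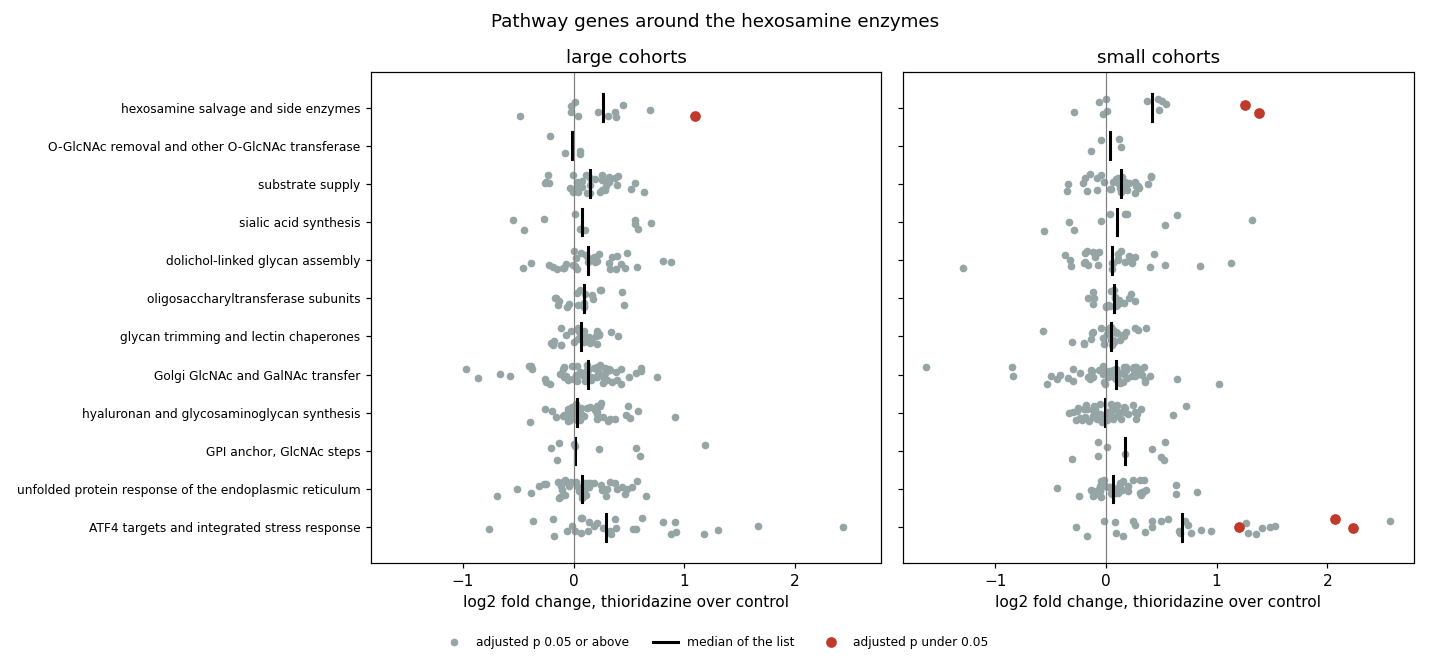
Log2 fold change of thioridazine over control (x axis) for each tested row of the 12 pathway lists (points, 333 rows), in large and small cohorts, with the median of each list as a black bar. Rows with an adjusted p under 0.05 are red: gale.S in large cohorts, and gale.S, gale.L, ddit3.L, nupr1.L and chac1.L in small cohorts.

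The genes most like the hexosamine enzymes across the 12 libraries were ranked by Pearson correlation of log2 CPM with the mean centred log2 CPM of gfpt1.S, gfpt2.L, gnpnat1.L, pgm3.L, uap1.L and ogt.L. This mean followed gfpt2.L (r = 0.996) and gfpt1.S (r = 0.99) far more than uap1.L (r = 0.42) or ogt.L (r = -0.48). The 8 named genes outside the 6 symbols with the highest r were copa.S (0.99), gale.S (0.98), pmt.L (0.98), copg1.S (0.97), cyp20a1.L (0.97), fasn.L (0.97), arl11l.1.L (0.97) and fads1.S (0.97). copa.S and copg1.S encode subunits of the COPI coat, which carries vesicles back to the endoplasmic reticulum. fasn.L encodes fatty acid synthase and fads1.S a fatty acid desaturase. Their log2 fold changes with thioridazine in large and small cohorts were 0.60 and 0.60 for copa.S and 0.36 and 0.37 for copg1.S, against 1.24 and 1.51 for fasn.L and 2.13 and 2.50 for fads1.S. The likeness is a description: all values come from the same 12 libraries, and 6 of these were treated, so genes that separate the treatments score high.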

How the data were processed

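RNA was measured in 12 libraries of whole Xenopus laevis embryos (4 groups of 3), made with a ribosomal RNA depletion kit that keeps strand. The authors trimmed reads, removed ribosomal matches with Bowtie2, aligned with STAR and deposited RSEM expected counts per gene, and a log2 CPM table of 26050 genes. For the counts, the genome build and the tool versions are not stated in the paper, labels or file headers. The deposited log2 values were recomputed from the counts to within 4.97e-14, and they entered 1 alternative only. Of all expected counts, 32.6% were not whole. They were used as they are in limma and rounded to whole numbers for edgeR and DESeq2.

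Genes over 1.8 CPM in at least 3 libraries were kept. Counts were scaled by TMM, weighted by voom, and fitted with limma 3.58.1 (R 4.3.3, edgeR 4.0.16, sva 3.50.0, DESeq2 1.42.0) over 12 libraries with 2 surrogate variables. The filter, scaling and surrogate variables are those of the study's methods, which also mention a batch adjustment. No batch is labelled, so none was fitted, and the filter leaves another number of genes here than in the study. P-values were Benjamini-Hochberg adjusted over 25553 genes, called under 0.05. The tests were checked on simulated data without unlabelled variation among libraries, so that check does not cover how the surrogate variables act here. The labels name no separate clutches, so p-values measure only the spread between these libraries, which may be technical. Fold changes are thioridazine over control or large over small cohorts. The rows, lists and rules were chosen with earlier results of these data known. Named genes were all rows of the 6 symbols, up to 3 called genes for each list (the smallest p where none was called), and the 8 most alike genes. Names were matched to RefSeq symbols for all 7 rows. No sequence was analysed here. Alternatives were other numbers of surrogate variables, the replicate number as a block, RLE scaling or library totals, edgeR and DESeq2, no filter or 5 CPM, the 6 libraries of a contrast, and each library left out. Another left out thioridazine small 1 and thioridazine large 2, which were picked from their place on the main axis of variation. Chosen after seeing the data were the sum of gfpt1.S and gfpt2.L and the 6 listed genes without uap1.S.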

Additional observations from a re-analysis of the deposited data

How the results depend on the processing

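The count of rows called between large and small cohorts, 0 of 7 in thioridazine embryos, in control embryos and for the interaction, was 0 under every alternative run, among them each left-out library, both replicate block fits and the sum of gfpt1.S and gfpt2.L. No named value reversed with a call. Replicate numbers did not pair the samples: deviations of same-numbered libraries correlated at -0.15 to 0.10, with 1 of 12 pairs over 0.1. With the replicate block and 2 surrogate variables, 2 pathway genes were called in each cohort size, and with the block alone 25 in small and 16 in large cohorts. Pathway calls in small cohorts (5 as reported) were 32 without surrogate variables, 40 with 3, 20 with the 6 libraries alone, 8 without thioridazine small 1 and thioridazine large 2, 3 at 5 CPM and 0 in the deposited log2 CPM table. In large cohorts (1 as reported) they were 20 without surrogate variables, 27 with 3, 28 with the 6 libraries alone, 5 without the same 2 libraries, 6 without a filter, 2 by edgeR and by DESeq2 and 0 in the log2 CPM table. Leaving out 1 library gave 0 to 44 calls in small and 0 to 39 in large cohorts: in small cohorts 19, 2 and 44 without thioridazine small 1, 2 and 3, 22, 20 and 1 without thioridazine large 1, 2 and 3, 0 and 3 without control small 1 and 2, and 3 and 8 without control large 2 and 3. In large cohorts it gave 39 and 29 without thioridazine small 1 and 3, 9 and 12 without thioridazine large 1 and 2, 2 without control small 1, and 0 and 9 without control large 2 and 3. Surrogate variables were estimated anew in each of these fits, without control large 3 in 1 round of reweighting. The calls in small cohorts were lost in 9 alternatives for gale.L, 7 for chac1.L, 6 for nupr1.L, 4 for ddit3.L and 2 for gale.S, of 26 each. In large cohorts the gale.S call was lost in 2. Calls were gained there in 13 of 26 alternatives for chac1.L, 12 for ddit3.L and 10 each for alg5.S and stt3a.S. They were also gained in 6 each for b3gnt5.S and eif2ak3.S, and in 3 each for gale.L and nupr1.L. In small cohorts eif2ak3.S gained a call in 10. The cause of the differences was not tested.

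The median log2 fold change of the 7 rows in small cohorts (0.24) was 0.44 without surrogate variables, 0.43 with 3, 0.37 and 0.44 under the replicate block with and without them, 0.38 without a filter, 0.44 with the 6 libraries alone, 0.46 without thioridazine small 1 and thioridazine large 2, 0.34 over the 6 listed genes, and 0.10 to 0.45 with a library left out. In large cohorts (0.36) it was 0.19, 0.15 with 3, 0.19 under the block alone, 0.19 with the 6 libraries alone and 0.17 to 0.39 with a library left out. gfpt1.S stayed between 1.83 and 2.42 over all alternatives, and gfpt2.L between 1.14 and 1.81. Depth limits uap1.S and gnpnat1.L, at under 100 counts a library.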
